A study of Homo sapiens with 4 samples.

Results

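The genes described here are the enzymes that make the polyamines and the proteins that control them: ODC1, AMD1, SRM, SMS, SAT1, OAZ1, OAZ2 and AZIN1. They were named by their roles in the pathway, with earlier results of these data known, and all 8 were found among the 18806 gene symbols of the RNA-seq table. The RNA was from Huh7, a human liver cancer line, and all cells descended from 1 Cas9-expressing clone. The cells had received a lentiviral guide, either a non-targeting one (sgNS, labelled WT for genotype) or one against METTL16 (sgMETTL16, labelled METTL16 knockdown for genotype and called a KO in the series design), and were selected with hygromycin B. There were 2 libraries per group and 4 in all. The labels number the sgMETTL16 libraries without saying whether both carry the same METTL16 guide, so the spread within that group may include a difference between guides. The paper describes 2 biological replicates per RNA sequencing sample. The labels do not say whether the libraries of a group came from separate transductions. The limma p-values rest on the spread between these libraries, partly shared across all genes tested, and that spread may be technical.

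Polyamines are small, positively charged molecules that bind RNA and DNA and are needed for growth and for translation. ODC1 (ornithine decarboxylase) makes putrescine from ornithine, AMD1 decarboxylates S-adenosylmethionine (SAM) to provide aminopropyl groups, and SRM and SMS add these groups to give spermidine and then spermine. SAT1 acetylates spermidine and spermine, which marks them for export or oxidation, the antizymes OAZ1 and OAZ2 bind ODC1 and bring it to the proteasome, and AZIN1, a relative of ODC1 without enzyme activity, binds antizyme and so protects ODC1. METTL16, the m6A methyltransferase targeted here, acts on the mRNA of MAT2A, the enzyme that makes SAM, and AMD1 draws on the SAM that MAT2A makes.

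The expression value was TPM, a share of all transcripts that is scaled for transcript length and can be compared between genes. Read numbers cannot be had from TPM, and the depth is unknown. METTL16 itself was listed at 26.3 and 25.1 TPM with sgNS, against 17.6 and 18.8 TPM with sgMETTL16, a fall by 0.50 on the log2 scale (SE 0.062, adjusted p = 2.4e-05 in limma). The hepatocyte and hepatoma markers ALB, AFP, APOA1, APOB, TTR, SERPINA1, HNF4A and FGB were all listed between 160 and 10387 TPM. Of them, 7 were higher in sgMETTL16, where 50.1% of all genes tested were. Their summed level was 15944 and 16099 TPM in the controls and 29806 and 29376 TPM with sgMETTL16. Most of that difference lay in AFP, listed at 1737 and 1793 TPM in the controls and 10387 and 10197 TPM with sgMETTL16. APOB was lower. SERPINA1 was not called with median-ratio scaling (adjusted p = 0.88 in limma) but was higher with quantile normalization (log2 fold change 0.47, adjusted p = 3.7e-08). ALB was not called with quantile normalization (log2 fold change 0.044, adjusted p = 0.13 in limma) but was higher with median-ratio scaling (0.25, adjusted p = 4.0e-06). Among markers of other cells, PTPRC and CD3E (leukocyte) reached at most 0.48 TPM, COL1A1, COL3A1 and DCN (fibroblast) 1.05 TPM, and VWF and CDH5 (endothelial) 0.04 TPM. LYZ ranged from 909 to 1553 TPM and PECAM1 from 2.70 to 5.14 TPM, both were lower in sgMETTL16, and the part of these markers in the results was not tested. The libraries are bulk RNA, in which fewer cells of a type and less RNA per cell cannot be told apart.

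AMD1, SRM and OAZ2 were higher in sgMETTL16 than in sgNS, SAT1, AZIN1 and SMS were lower, and ODC1 and OAZ1 did not pass the test. Differences are given on log2(TPM + 0.1) from limma, with p-values adjusted by Benjamini-Hochberg over the 11971 genes that had a mean of at least 1 TPM. At an adjusted p under 0.05, 3 of the 8 genes were higher and 3 were lower, where 50.1% and 25.6% of all genes tested were called in these directions and 75.7% in either, and the share of the 8 genes called (75.0%) was near that of all genes. The groups did not overlap in any of the 8 genes, against 87.4% of all genes. None of the 8 reached an unadjusted p under 0.01 together with a 2-fold change, which 11.4% of all genes did in limma. The unmoderated linear model also gave 0 of the 8, against 991 of all 11971 genes. In limma 6 of the 8 had an unadjusted p under 0.05, as did at least the 75.7% of all genes called after adjustment. The median log2 fold change was 0.005 over the 8 genes and 0.16 over all genes. Over all genes 5999 were higher and 3065 lower, and with median-ratio scaling 4359 and 4375. Median-ratio scaling lowers every log2 fold change by about that 0.16, so differences are also given relative to the median gene.

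**Figure D1:**
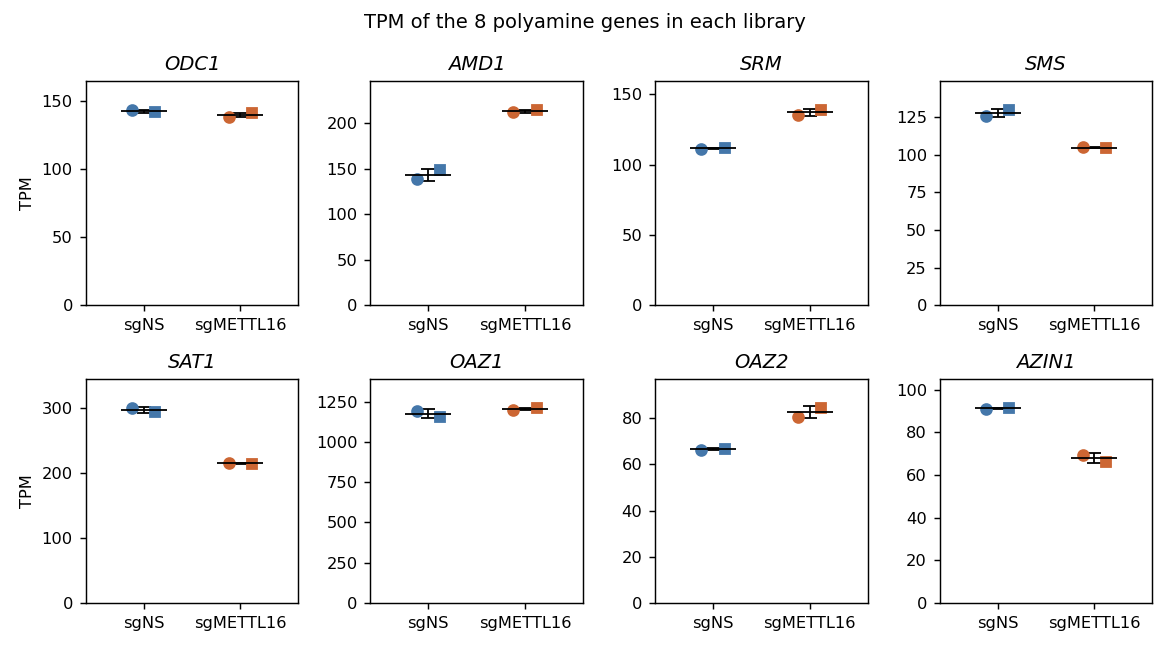
TPM of each gene (y axis, from 0, a separate scale per gene) in the sgNS and sgMETTL16 libraries (x axis). Circles are replicate 1 and squares replicate 2, and the bar with whiskers is the mean ± SD of 2 libraries. AMD1 stands near 143 TPM in sgNS and 213 TPM in sgMETTL16, whereas the ODC1 means are 142 and 139 TPM.

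OAZ1 was by far the most abundant of the 8 mRNAs in both groups, at 1175 ± 27 TPM (SD, n = 2) in sgNS, followed by SAT1 at 297 ± 4.5 TPM. AMD1 and ODC1 came next in sgNS and their values overlapped, at 143 ± 6.6 and 142 ± 1.1 TPM. SMS, SRM, AZIN1 and OAZ2 followed in that order, from 128 down to 66.7 TPM, and no neighbours among them overlapped. In sgMETTL16 the order of the lower 6 genes was another: AMD1 at 213 ± 1.6 TPM stood apart from ODC1 at 139 ± 1.8 TPM, SRM at 137 ± 2.2 TPM overlapped ODC1 and stood above SMS at 105 ± 0.38 TPM, and OAZ2 at 82.6 ± 2.7 TPM stood above AZIN1 at 67.9 ± 2.3 TPM. All 8 genes were well expressed, from percentile 81.0 (OAZ2) to 99.0 (OAZ1) of the mean TPM of the genes tested. Reads of AMD1, SRM, SMS and OAZ1 may be shared with pseudogenes named after them that the table does not list, so their values are uncertain to that extent.

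Of the 2 enzymes that commit substrates to the pathway, only AMD1 passed the test. AMD1, at positions 110874770 to 110898879 of chromosome 6 (GRCh38, plus strand), was listed at 138.7 and 148.0 TPM with sgNS, against 211.8 and 214.0 TPM with sgMETTL16. Both sgMETTL16 libraries lay above both sgNS libraries. The log2 fold change was 0.57 (SE 0.040), a 1.49-fold rise, with an adjusted p = 2.6e-07 in limma, and it lay 0.41 above the median gene. At percentile 79.8 of all log2 fold changes, this was the largest rise among the 8 genes. ODC1, on the minus strand of chromosome 2 from 10439968 to 10448327, was listed at 142.9 and 141.3 TPM with sgNS, against 138.2 and 140.7 TPM with sgMETTL16. The sgMETTL16 values were lower by so little that the log2 fold change of -0.027 (95% interval -0.11 to 0.052, adjusted p = 0.51 in limma) did not pass the test. Relative to the median gene it was -0.19, and with median-ratio scaling ODC1 was at -0.19 with an adjusted p of 7.0e-04 and with quantile normalization at -0.11 with an adjusted p of 0.020 in limma. The difference between AMD1 and ODC1 does not depend on a scale factor of a library. The AMD1 to ODC1 ratio was 0.97 and 1.05 in the controls and 1.53 and 1.52 in sgMETTL16, a shift of 0.60 on the log2 scale.

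The aminopropyl transferases moved in opposite directions. SRM, on the minus strand of chromosome 1 from 11054584 to 11060020, was listed at 111.4 and 111.8 TPM with sgNS, against 135.6 and 138.7 TPM with sgMETTL16. Both sgMETTL16 libraries were higher, and the log2 fold change was 0.30 (SE 0.037, adjusted p = 2.5e-05 in limma), or 0.13 above the median gene. SMS, on the plus strand of chromosome X from 21940709 to 21994837, was listed at 125.7 and 129.6 TPM with sgNS, against 105.0 and 104.4 TPM with sgMETTL16. Both sgMETTL16 libraries were lower, with a log2 fold change of -0.29 (SE 0.038, adjusted p = 4.2e-05 in limma), and it was -0.45 relative to the median gene. The SMS to SRM ratio was 1.13 and 1.16 in the controls and 0.77 and 0.75 with sgMETTL16, so that the spermidine enzyme was the more abundant mRNA of the pair in sgMETTL16 and the spermine enzyme in sgNS.

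ODC1 and SRM are textbook targets of MYC, which binds DNA with its partner MAX at the E-box CACGTG, a motif that reads the same on both strands. MYC was listed at 68.2 and 65.9 TPM with sgNS, against 111.7 and 108.9 TPM with sgMETTL16, a log2 fold change of 0.72 (SE 0.041, adjusted p = 6.5e-08 in limma), and MAX at 12.8 and 11.2 TPM against 13.1 and 17.3 TPM (log2 fold change 0.33, adjusted p = 0.026). MAX was not called with median-ratio scaling (adjusted p = 0.24) or quantile normalization (adjusted p = 0.27), with log2 fold changes of 0.16 in each. Of the 4 genes of that list MYCN, chosen for mention after its value was seen, was the one that was lower, with a log2 fold change of -0.21, and MYCL lay under the minimum mean. RefSeq promoter windows on GRCh38.p14, each with 250 bases before and 50 after a transcription start, were on hand for 7 of the 8 genes, and CACGTG was found in those of ODC1 and SRM. It was found for 8.77% of the 27305 genes with such windows. The sites are shown with 12 bases on each side and the E-box in capitals, because they lie in the pair of members that MYC is known for, of which SRM was higher and ODC1 was not called.
SRM, chr1:11060200-11060229, minus strand, E-box starting 199 bases before the start: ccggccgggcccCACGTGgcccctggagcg
ODC1, chr2:10448024-10448053, minus strand, E-box starting 29 bases before the second start: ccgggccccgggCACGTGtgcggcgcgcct
ODC1, chr2:10447990-10448019, minus strand, E-box starting at base 6 of the second start: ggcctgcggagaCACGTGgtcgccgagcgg
The SRM site lies upstream of the canonical transcript of GENCODE release 44, and both ODC1 sites lie in an intron of the canonical ODC1 transcript, beside an alternative start. A match of letters is not evidence of binding in these cells.

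SAT1, the acetyltransferase that turns polyamines over, had the largest fall of the 8 genes. SAT1, on the plus strand of chromosome X from 23783173 to 23786210, was listed at 300.0 and 293.6 TPM with sgNS, against 214.8 and 214.4 TPM with sgMETTL16. The sgMETTL16 libraries nearly coincided and lay far below both sgNS libraries. The log2 fold change was -0.47 (SE 0.032), a value of 0.72 times that in sgNS, with an adjusted p = 2.5e-07 in limma, and it was -0.63 relative to the median gene, at percentile 12.6 of all genes. The SAT1 to SMS ratio was 2.39 and 2.27 in the controls and 2.05 in each sgMETTL16 library. The family member SAT2, which despite its name is known mainly for acetylating another substrate, was higher, as given with the other genes below.

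**Figure D2:**
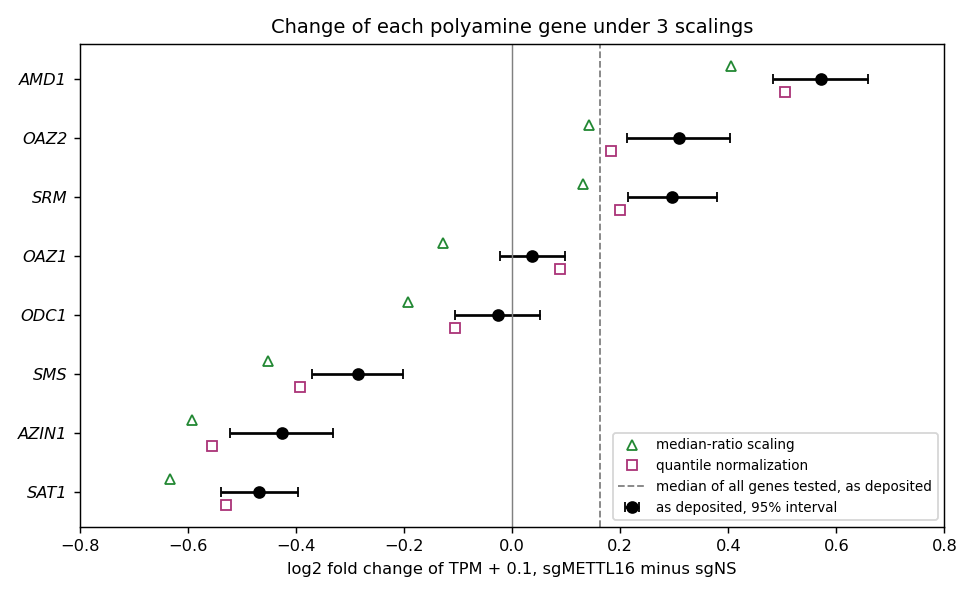
Log2 fold change of each gene (x axis, sgMETTL16 minus sgNS, log2 of TPM + 0.1) as deposited, with its 95% interval from limma (black), with median-ratio scaling (triangles) and with quantile normalization (squares). The dashed line is the median of all genes tested, 0.16. AMD1, OAZ2 and SRM lie above 0 and SMS, AZIN1 and SAT1 below it under each of the 3 scalings, while OAZ1 changes side.

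The antizymes are read from their mRNA in an unusual way: the ribosome meets a stop codon early in the coding region and slips forward by a single base to go on, and polyamines favour this slip. The site of the slip is shown for the antizymes because it is the point at which the pathway senses its own product. Each stretch comes from GRCh38, with the last sense codon and the stop codon before the slip in capitals (TCC, then TGA), and GENCODE leaves out the T of the stop codon from the annotated transcript.
OAZ1, chr19:2271428-2271457, plus strand: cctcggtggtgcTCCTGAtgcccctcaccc
OAZ2, chr15:64691501-64691530, minus strand: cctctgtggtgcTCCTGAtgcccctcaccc
OAZ3, chr1:151767209-151767238, plus strand: tgcctccagtgcTCCTGAgtccctagtagg
OAZ1 and OAZ2 share 29 of these 30 bases. The RNA level measured here says nothing of how often the slip occurred.

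Of the antizymes OAZ1 and OAZ2, only OAZ2 passed the test. OAZ1, on the plus strand of chromosome 19 from 2269509 to 2273490, was listed at 1194 and 1156 TPM with sgNS, against 1201 and 1210.3 TPM with sgMETTL16. The sgMETTL16 libraries were the higher ones, but by less than the sgNS libraries differed from each other. The log2 fold change was 0.037 (95% interval -0.023 to 0.097, adjusted p = 0.24 in limma), it was at 0.088 with quantile normalization (adjusted p = 0.0069) and it reversed to -0.13 with median-ratio scaling (adjusted p = 0.0016), so no direction is given for OAZ1. OAZ2, on the minus strand of chromosome 15 from 64687573 to 64703281, was listed at 66.5 and 66.9 TPM with sgNS, against 80.7 and 84.5 TPM with sgMETTL16. Both sgMETTL16 libraries were higher, with a log2 fold change of 0.31 (SE 0.043, adjusted p = 6.2e-05 in limma), or 0.15 above the median gene. OAZ2 remained the minor form, with an OAZ2 to OAZ1 ratio of 0.056 and 0.058 in sgNS and of 0.067 and 0.070 in sgMETTL16. The shift of this ratio was 0.27 on the log2 scale, and 0.094 with quantile normalization, under which both genes were called higher. The OAZ1 to ODC1 ratio was 8.36 and 8.18 in sgNS and 8.69 and 8.60 in sgMETTL16.

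AZIN1, the antizyme inhibitor, on the minus strand of chromosome 8 from 102826111 to 102893864, was listed at 91.1 and 91.5 TPM with sgNS, against 69.6 and 66.3 TPM with sgMETTL16. Both sgMETTL16 libraries were lower, with a log2 fold change of -0.43 (SE 0.043, adjusted p = 4.7e-06 in limma), which was -0.59 relative to the median gene and at percentile 13.8 of all genes. The AZIN1 to OAZ1 ratio was 0.076 and 0.079 in the controls and 0.058 and 0.055 with sgMETTL16, a shift of -0.46 on the log2 scale. The groups did not overlap in either AZIN1 or its ratio to OAZ1, and they did not overlap in 87.4% of all genes tested.

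**Figure D3:**
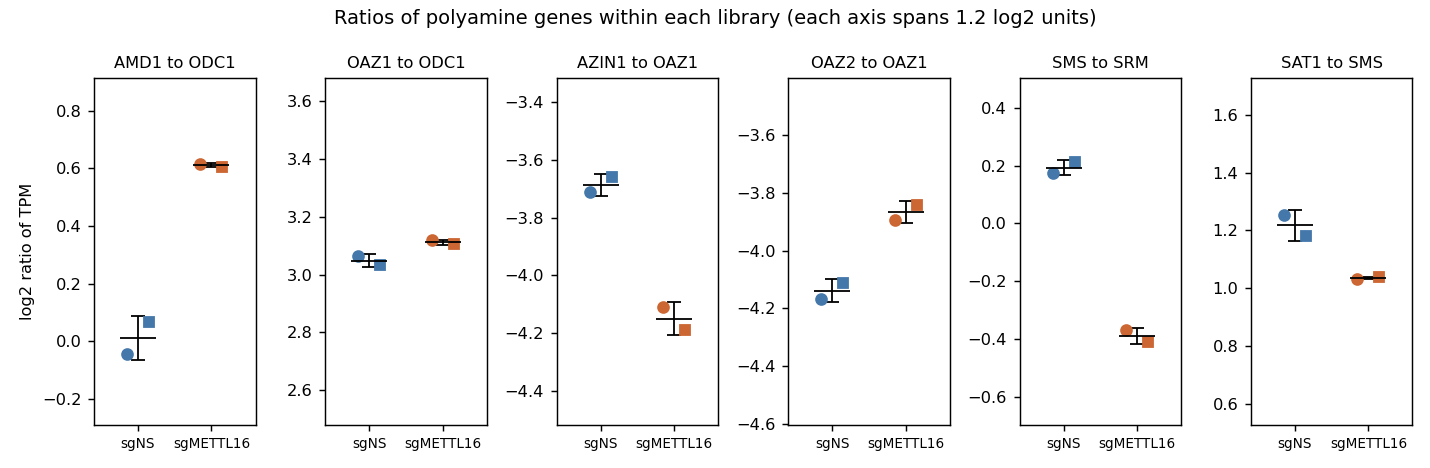
Log2 ratio of the TPM of 2 genes within a library (y axis, of equal span in each panel) in the sgNS and sgMETTL16 libraries, with circles for replicate 1, squares for replicate 2 and the mean ± SD of 2 libraries. AMD1 to ODC1 shifts by 0.60 and SMS to SRM by -0.58, the widest separations among the 6 ratios, and OAZ1 to ODC1 shifts by 0.064.

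The 6 ratios compared here (AMD1 to ODC1, OAZ1 to ODC1, AZIN1 to OAZ1, OAZ2 to OAZ1, SMS to SRM and SAT1 to SMS) separated the groups in every case. The groups also did not overlap in 87.4% of all single genes tested, and no such share was computed for ratios. With 2 libraries against 2 the exact two-sided permutation test gave p = 0.33 for each, the smallest it can give, also after Benjamini-Hochberg adjustment over the 6. The shifts of the AMD1 to ODC1 and SMS to SRM ratios were 0.60 and -0.58 on the log2 scale, against pooled SDs between libraries of 0.055 and 0.028.

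The other genes of polyamine metabolism were counted from 7 lists that hold 30 genes, of which 26 passed the minimum mean. Of these, 13 were higher and 10 were lower in limma, and the median log2 fold change was 0.057, beside 0.16 over all genes. The share called was 88.5%, against 75.7% of all genes, of which 50.1% were higher and 25.6% lower. With median-ratio scaling the counts were 7 higher and 13 lower, where 4359 and 4375 of all 11971 genes tested were. Among the genes under the minimum mean were SATL1, listed at 0 in each library, and AZIN2 and SLC25A2, which did not exceed 0.88 TPM. These 3, and of the genes named below SMOX, PAOX, EIF5A, DHPS, DOHH, MTAP, ADI1, SLC22A3, SLC3A2, OAT and SLC25A15, were chosen for mention after their values were seen.

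The largest rise and the largest fall in these lists were in SAM supply. MAT2A, which makes SAM in most tissues and in tumours, was listed at 105.9 and 106.9 TPM with sgNS, against 64.0 and 64.5 TPM with sgMETTL16, a log2 fold change of -0.73 (SE 0.040, adjusted p = 4.2e-08 in limma). MAT1A, its counterpart in the normal liver, was listed at 1.01 and 1.02 TPM with sgNS, against 4.39 and 4.90 TPM with sgMETTL16. Its log2 fold change was 2.09 (SE 0.16, adjusted p = 5.0e-07 in limma). Of the 26 tested genes of the 7 lists, only MAT1A was past both the p and the 2-fold threshold, which 11.4% of all genes passed. It remained far less abundant than MAT2A. AMD1, which consumes SAM, was higher in the libraries in which MAT2A was lower. MAT2A carries the hairpins that METTL16 is known to methylate, and the first of them is shown as the reference for a search of the 8 genes, with the motif TACAGAGAA in capitals.
MAT2A, chr2:85543802-85543830, plus strand, after the stop codon: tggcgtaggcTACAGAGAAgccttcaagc
The MAT2A transcript held TACAGAGAA 5 times and its variant TACAGAAAA 1 time. None of the canonical transcripts of the 8 polyamine genes held either of them on the sense strand, and 7.78% of all 20046 canonical coding transcripts held at least one. No match says only that these letters are not in those transcripts.

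Methylthioadenosine (MTA), the by-product of SRM and SMS, is turned back into methionine by a salvage route. Of its 5 genes, 3 were lower, 1 was higher and 1 was not called, beside 25.6% of all genes lower and 50.1% higher. The higher gene, ADI1, had a log2 fold change of 0.21. It was not called with median-ratio scaling (0.042, adjusted p = 0.36 in limma) but was with quantile normalization (0.14, adjusted p = 0.011). APIP, a dehydratase of the route, was listed at 43.5 and 44.5 TPM with sgNS, against 29.9 and 29.1 TPM with sgMETTL16 (log2 fold change -0.58, adjusted p = 1.5e-06 in limma), and ENOPH1, which acts after it, at 39.0 and 40.1 TPM against 26.9 and 28.1 TPM (log2 fold change -0.52, adjusted p = 4.8e-06). Both groups of values were well apart in each gene. MTAP, the first enzyme of the route, had a log2 fold change of -0.030 (adjusted p = 0.64 in limma), and -0.19 (adjusted p = 0.0087) with median-ratio scaling.

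In the hypusination list 3 of 4 genes were higher, where 50.1% of all genes were. This modification uses spermidine to alter a lysine of the translation factor EIF5A, in steps catalysed by DHPS and DOHH. EIF5A itself was listed at 1052 and 1068 TPM with sgNS, against 1040.3 and 1046 TPM with sgMETTL16, with a log2 fold change of -0.023 (adjusted p = 0.44 in limma) that became -0.19 (adjusted p = 1.2e-04) with median-ratio scaling and 0.012 (adjusted p = 0.64) with quantile normalization. EIF5A2, the rarer paralog, was listed at 5.49 and 6.30 TPM with sgNS, against 9.27 and 9.87 TPM with sgMETTL16 (log2 fold change 0.69, adjusted p = 6.3e-05). The rises of DHPS and DOHH were smaller, with log2 fold changes of 0.21 and 0.47, and with median-ratio scaling DHPS was no longer called (adjusted p = 0.38), nor was it with quantile normalization (adjusted p = 0.055).

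Of 6 transport genes tested, 3 were higher and 3 were lower, beside 50.1% of all genes higher and 25.6% lower. ATP13A2, a lysosomal polyamine exporter, was listed at 9.63 and 9.39 TPM with sgNS, against 16.4 and 18.1 TPM with sgMETTL16 (log2 fold change 0.85, SE 0.076, adjusted p = 1.8e-06 in limma). SLC18B1, a vesicular polyamine transporter, was listed at 98.2 and 96.0 TPM against 141.1 and 135.1 TPM (log2 fold change 0.51, adjusted p = 6.9e-07). Both were higher under each scaling. SLC22A3, an organic cation transporter, was lower, at 22.4 and 23.3 TPM against 15.9 and 17.8 TPM (log2 fold change -0.44, adjusted p = 1.8e-04), and SLC3A2, with a log2 fold change of 0.14 as deposited, was at -0.029 with median-ratio scaling.

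In the catabolism list, SAT2 was listed at 68.4 and 70.7 TPM with sgNS, against 96.8 and 101.0 TPM with sgMETTL16 (log2 fold change 0.51, adjusted p = 1.2e-06 in limma), in the opposite direction to SAT1. PAOX, a polyamine oxidase, was lower, at 6.08 and 5.14 TPM against 3.86 and 4.84 TPM (log2 fold change -0.36, adjusted p = 0.029), and SMOX, the spermine oxidase, was not called (log2 fold change -0.073, adjusted p = 0.39) and had overlapping groups. With median-ratio scaling SMOX was called lower, at -0.24 (adjusted p = 0.013 in limma), and with quantile normalization at -0.26 (adjusted p = 0.010). OAZ3, the antizyme known from the testis, was listed at 5.87 and 4.51 TPM with sgNS, against 9.03 and 9.01 TPM with sgMETTL16 (log2 fold change 0.80, SE 0.12, adjusted p = 1.1e-04). Of the 4 ornithine genes tested, ARG1 and OAT were higher and ARG2 and SLC25A15 were lower, beside 50.1% and 25.6% of all genes. OAT, with a log2 fold change of 0.18, was not called with median-ratio scaling (0.015, adjusted p = 0.80 in limma) or quantile normalization (0.035, adjusted p = 0.57). ARG2, the mitochondrial arginase, was listed at 42.3 and 46.3 TPM against 34.9 and 35.8 TPM (log2 fold change -0.32, adjusted p = 3.0e-04), and ARG1, the liver arginase, at 51.0 and 56.8 TPM against 64.9 and 64.1 TPM (log2 fold change 0.26, adjusted p = 0.0012), a rise that was not called with median-ratio scaling (adjusted p = 0.15) or quantile normalization (adjusted p = 0.065).

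**Figure D4:**
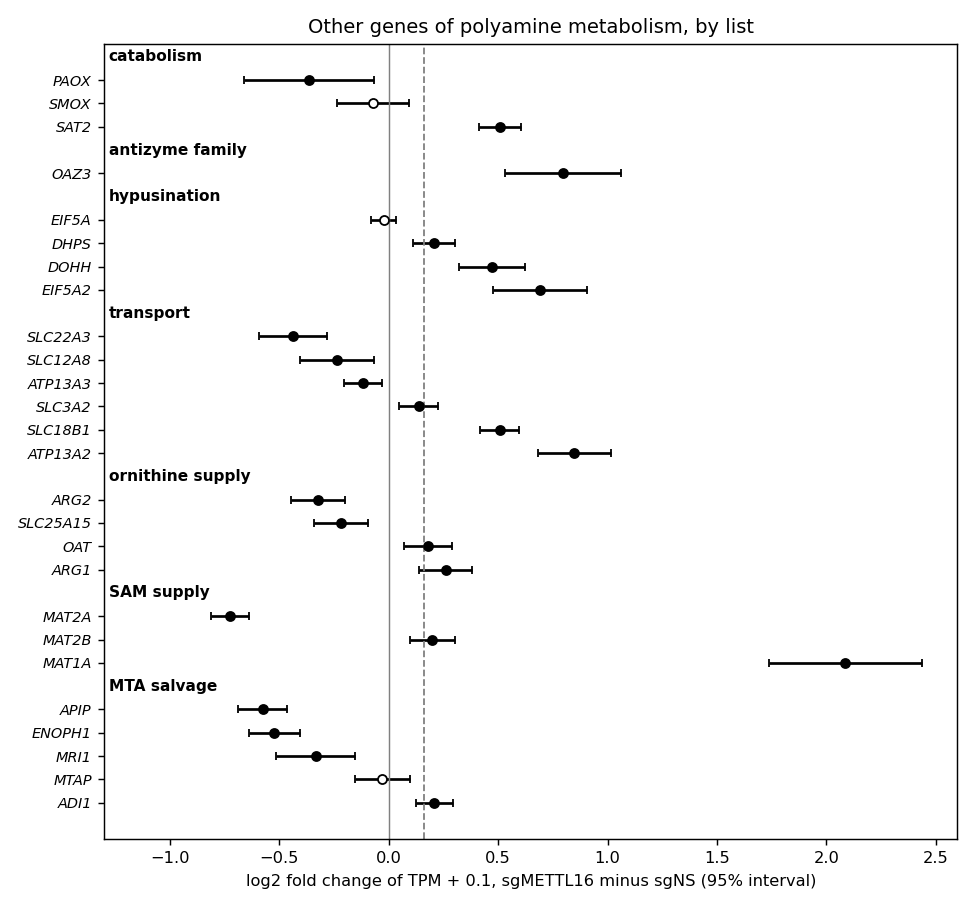
Log2 fold change (x axis, sgMETTL16 minus sgNS, log2 of TPM + 0.1) with its 95% interval from limma for the 26 tested genes of the 7 lists. Filled points have an adjusted p under 0.05 and open points do not, and the dashed line is the median of all genes tested, 0.16. MAT1A lies farthest to the right, at 2.09, and MAT2A farthest to the left, at -0.73.

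The genes with patterns nearest to those of AMD1 and SAT1 were found by the root mean square difference of log2(TPM + 0.1), centred per gene, over the 4 libraries. For AMD1 they were PIGY and PYURF, which are listed with the same values and differed from AMD1 by 0.0038, and ANAPC4, which differed by 0.0049. For SAT1 they were RPLP0 at 0.0049, FAM20B at 0.0075 and CELSR2 at 0.0086. With 4 libraries in 2 groups many genes lie this close, and 382 genes were within 0.05 of AMD1 and 330 within 0.05 of SAT1.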

How the data were processed

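RNA-seq libraries of Huh7 cells (2 sgNS, 2 sgMETTL16) were compared. The authors deposited TPM values per gene symbol, rounded to 2 decimals. Their reads went through Cutadapt (trimming), STAR (alignment, GRCh38) and RSEM (quantification), and the versions and annotation are not given in the sources used here. RPKM is the unit named in the methods, but the columns sum to 1000000. The depth is therefore unknown, no counting error can be given, and no count test was run. The labels name ribosomal RNA depletion and the methods an mRNA kit.

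For 11971 genes whose mean reached 1 TPM, log2(TPM + 0.1) was fitted with limma 3.58.1 in R 4.3.3 (lmFit, eBayes with trend, no block), two-sided, with Benjamini-Hochberg adjustment over all of them. The model was tested on simulated data in which 100 genes changed by 0.3 and 100 by 1 on the log2 scale. It recovered 79 and 100 of them and called 13 unchanged genes. A far smaller share of genes changed there than was called in the data, so the simulation does not cover that setting. Ratios were compared with scipy 1.17.1 in Python 3.11.15. The members and lists were chosen with earlier results of these data known. Named are the 8 members, METTL16, MYC and MAX, and genes of the other lists past an adjusted p of 0.05 whose log2 fold change was 0.5 or more in size, or else up to 2 per list, and the 3 nearest patterns of 2 members. 

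Gene positions, canonical transcripts and the antizyme sites are from GENCODE release 44 and GRCh38, and promoter windows from RefSeq on GRCh38.p14. GENCODE lists 4 pseudogenes named after AMD1, 3 after SRM and 1 each after SMS and OAZ1, none of them in the table, with which reads may be shared. Alternatives were pseudocounts of 1 and 0.01, no filter, a minimum mean of 5 TPM, quantile normalization, limma without trend, median-ratio scaling, the replicate block, an unmoderated model and each library left out in turn. One gene of the other lists is not reported here.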

Additional observations from a re-analysis of the deposited data

How the results depend on the processing

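AMD1, SRM, OAZ2, SMS, SAT1 and AZIN1 kept their direction and an adjusted p under 0.05 in limma or the unmoderated model in each of the 13 alternatives, with log2 fold changes from 0.41 to 0.62 for AMD1, 0.13 to 0.31 for SRM, 0.14 to 0.34 for OAZ2, -0.45 to -0.26 for SMS, -0.63 to -0.45 for SAT1 and -0.59 to -0.39 for AZIN1. Of the 8 genes, only ODC1 and OAZ1 changed their call. With median-ratio scaling ODC1 was at -0.19 and OAZ1 reversed to -0.13. So 5 of the 8 genes were lower, where 4375 of all 11971 genes tested were lower with that scaling. With quantile normalization ODC1 was at -0.11 and OAZ1 at 0.088. The cause was not tested, apart from the shift of all genes by the scaling itself. Of the 30 other genes, 13 were higher and 10 lower as reported. Median-ratio scaling gave 7 higher and quantile normalization 8 higher, where over all genes 4359 and 4420 were higher. The unmoderated model gave 5 higher and 4 lower. Over all genes it called 4049 higher and 1949 lower where 5999 and 3065 were reported. Leaving out 1 library gave 6 to 10 lower, the lowest without sgMETTL16 replicate 1. Same-numbered libraries deviated from their group means with a correlation of -0.044 across genes, so the numbers were not taken as pairs. With the replicate block 3 of the 8 genes were higher and 3 lower, with 13 and 10 of the other genes, so it changed no count. Quantile normalization moved the ratio shifts of OAZ1 to ODC1 to 0.19, AZIN1 to OAZ1 to -0.64, OAZ2 to OAZ1 to 0.094 and SAT1 to SMS to -0.14. As depth is unknown, the error of genes listed at low TPM, such as MAT1A and PAOX, could not be set against read counts.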
